A study of Mus musculus with 2 samples.

Results

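The genes described here are 10 surface recognition molecules of the immunoglobulin superfamily, chosen by symbol from the count files of J-RGCs: the sidekicks Sdk1 and Sdk2, the Down syndrome cell adhesion molecules Dscam and Dscaml1, and the contactins Cntn1 to Cntn6. All 10 of the 10 symbols were found among the 24015 gene symbols of the files. J-RGCs are a type of mouse retinal ganglion cell, the neurons that carry visual signals from the eye to the brain, and are marked by the adhesion molecule Jam2. The cells were taken from the retina at postnatal day 6, marked by green fluorescent protein from a transgenic line made for J-RGCs, and isolated by bead and flow sorting. There was 1 group of 2 libraries, called A and B, each a pool of 5 to 6 animals from its own litter. All animals carried the label, and no second cell type, age or treatment was part of the data, so levels were compared between genes and between the libraries. The gene counts of A summed to 7916204 and those of B to 13744313.

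Sidekicks are adhesion proteins that bind copies of themselves on a facing membrane and are known for matching synaptic partners within layers of the retina. Dscams belong to the same superfamily. In the mouse retina they are known for keeping neurites of the same cell type from clumping and for spacing cell bodies. Contactins have no membrane-spanning part. They are held to the cell surface by a lipid anchor and act together with membrane-spanning partners, such as the Caspr proteins, members of the L1 family and amyloid precursor protein family members.

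All 10 genes were read in both libraries, but at very different levels. Per exon length Cntn1 was highest and Dscam next, and the other 8 were lower. Counts were scaled to a total of 1000000 per library (CPM). Detection was set at 1 CPM or more in A and in B. By that measure 10 of 10 were detected, beside 46.8% of all gene symbols. At least 10 CPM in both libraries was reached by 9 of 10, beside 27.8% of all symbols, and at least 100 CPM by 2 of 10, beside 6.53%. Their median level was 40.7 CPM (library A) and 49.8 CPM (library B), where the median over all gene symbols was 0.758 and 1.89 CPM. These genes are known from neurons, so a share above that of all symbols describes the choice of genes as much as the cells. In a bulk sample, fewer cells that express a gene and less of its RNA per cell cannot be told apart.

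**Figure D1:**
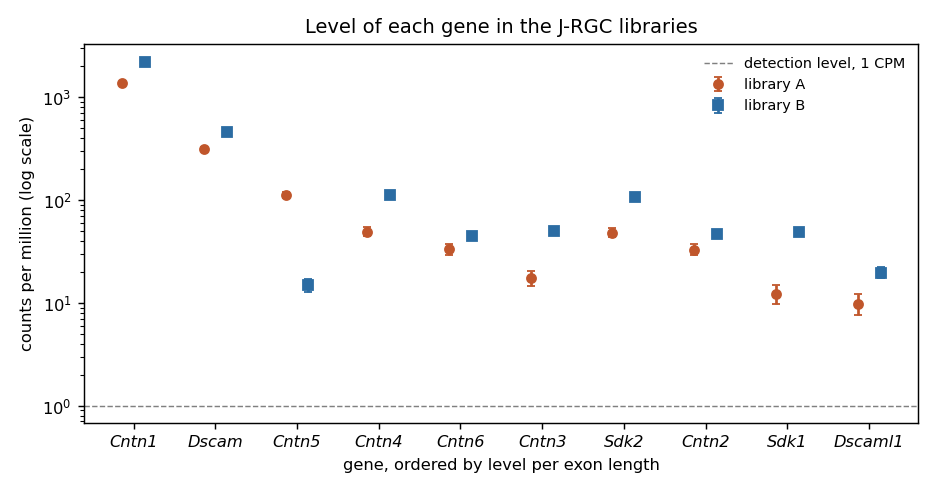
Level of each gene in CPM (vertical log axis) in library A (circles) and library B (squares), with genes ordered by mean level per exon length. Bars are 95% Poisson intervals, which cover counting error only, and the dashed line marks 1 CPM. Cntn1 and Dscam lie above 100 CPM in both libraries, and Cntn5 stands at 113 CPM in A and 14.8 CPM in B.

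Contactin 1 is an axonal adhesion molecule that takes part in forming the junctions beside the nodes of Ranvier. Cntn1 had 10992 counts in A and 30570 in B, which gave 1389 CPM (95% Poisson interval 1363 to 1415) and 2224 CPM (2199 to 2249). Its mean of 1806 ± 591 CPM (SD, n = 2 libraries, as for all means below) put it at rank 46 of all symbols by CPM, which is not adjusted for length. The genes ranked directly above it were Stmn2, Dpysl3 and Dlg2, and those directly below were Kif1a, Jam2 and Dst. Jam2, which defines the cell type, stood at 2344 CPM in A and 1203 CPM in B, or 388 and 199 CPM per kilobase of exon, a scale on which Cntn1 had 147 and 236.

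The other contactins lay between 14.8 and 113 CPM in either library. Cntn4, which binds amyloid precursor protein and is known from ganglion cells that project to the accessory optic system, stood at 49.0 CPM in A and 112 CPM in B. Cntn2, also known as TAG-1 and carried by growing axons, stood at 32.8 and 46.9 CPM. Cntn6, a ligand tied to axon and dendrite growth, stood at 33.3 and 45.1 CPM, and Cntn3, of which less is known, at 17.3 and 50.3 CPM. By gene totals each of these 4 was lower in A than in B, a direction that flipped for Cntn6 under 2 other scalings. Cntn5, known for patterning the dendrites of direction-selective ganglion cells downstream of the chromatin organiser Satb1, went the other way with 893 counts or 113 CPM in A and 204 counts or 14.8 CPM in B. Its Poisson intervals of 106 to 120.5 CPM and 12.9 to 17.0 CPM did not overlap. The same held for each of the 10 genes, as these intervals cover counting error only. The share of all genes with intervals apart was not computed. By the exact binomial test used below, with no fold minimum, 77.8% of all genes tested differed between the libraries.

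Among the Dscams, Dscam had 2485 counts in A and 6349 in B, or 314 and 462 CPM, and a mean of 388 ± 105 CPM. Its paralogue Dscaml1, known from neurons of the rod pathway in mouse retina, had 77 and 271 counts, or 9.73 and 19.7 CPM. Dscam thus held 97.0% of the pair's counts in A (95% Clopper-Pearson interval 96.3 to 97.6) and 95.9% in B (95.4 to 96.4). Among the sidekicks, Sdk2 had 381 counts in A and 1466 in B, or 48.1 and 107 CPM, and Sdk1 had 96 and 677 counts, or 12.1 and 49.3 CPM. Sdk2 held 79.9% of the pair's counts in A (76.0 to 83.4) and 68.4% in B (66.4 to 70.4). Per exon length these shares were 74.0% and 60.8%, so Sdk2 was the higher of the pair in both libraries.

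A longer transcript yields more reads at the same number of molecules, so genes were compared as CPM per kilobase of summed exon length, which ran between 4.53 kb for Cntn5 and 15.5 kb for Sdk2. On this scale Cntn1 averaged 191 ± 62.6, Dscam 44.1 ± 11.9 and Cntn5 14.1 ± 15.3 CPM per kb. Cntn4 stood at 9.48 ± 5.23, Cntn6 at 6.04 ± 1.28, Cntn3 at 5.03 ± 3.47 and Sdk2 at 5.00 ± 2.68 CPM per kb. The lowest were Cntn2 at 4.28 ± 1.07, Sdk1 at 2.77 ± 2.37 and Dscaml1 at 1.65 ± 0.793 CPM per kb. The SD of Cntn5 exceeded its mean, and with A alone it took place 3 of the 10, with B alone place 9. Its place depended on the length too, since it took place 4 per longest coding transcript or coding length and place 5 with no length correction.

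Ratios between genes were given a 95% interval from counting error and the trended dispersion that edgeR estimated over all genes. Of the 9 neighbouring pairs in the order, 2 were separated, meaning that the interval excluded 1. Cntn1 exceeded Dscam 4.34-fold in CPM per kb (1.55 to 12.2), with 4.13-fold in A and 4.49-fold in B. Dscam exceeded Cntn5 3.13-fold (1.25 to 7.85), but this rested on library B, where the ratio was 16.0 (4.34 to 59.1), whereas in A it was 1.43 (0.390 to 5.26). With A alone Cntn1 over Dscam had an interval of 0.958 to 17.8, which held 1, and with B alone one of 1.04 to 19.3. These single-library intervals are wider by construction. The other 7 neighbouring pairs were not separated, with ratios between 1.00 and 1.68, and 5 of the 9 kept their order in both libraries.

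Over all 45 pairs of the 10 genes, 27 were separated at 95% and 18 when the intervals were widened to hold for all 45 at once. Separation did not require the same order in each library, which 35 of the 45 pairs had. Cntn5 was separated from Cntn3, Sdk2, Cntn2 and Sdk1, and from Sdk1 also with the wider intervals. In B its ratios to these genes were 0.438, 0.475, 0.650 and 0.737, so there it was the lower gene. With the wider intervals Cntn1 was separated from 8 of the 9 others and Dscam from 7, Cntn1 and Dscam not being separated from each other. Cntn1 exceeded Cntn4 20.2-fold (95% interval 7.67 to 53.2), Sdk2 38.3-fold (14.5 to 101) and Dscaml1 116-fold (39.6 to 339). Dscam exceeded its paralogue Dscaml1 26.7-fold (9.51 to 74.8). Sdk2 and Sdk1 were not separated, although Sdk2 was higher in both libraries. Cntn1 and Dscam kept the first and second place, and Dscaml1 the last, in every setting of length and libraries. The dispersion settings act on the intervals only and could not change the order. With A alone the last place of Dscaml1 was close to a tie, with Sdk1 over Dscaml1 at 1.00 (0.239 to 4.19).

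**Figure D2:**
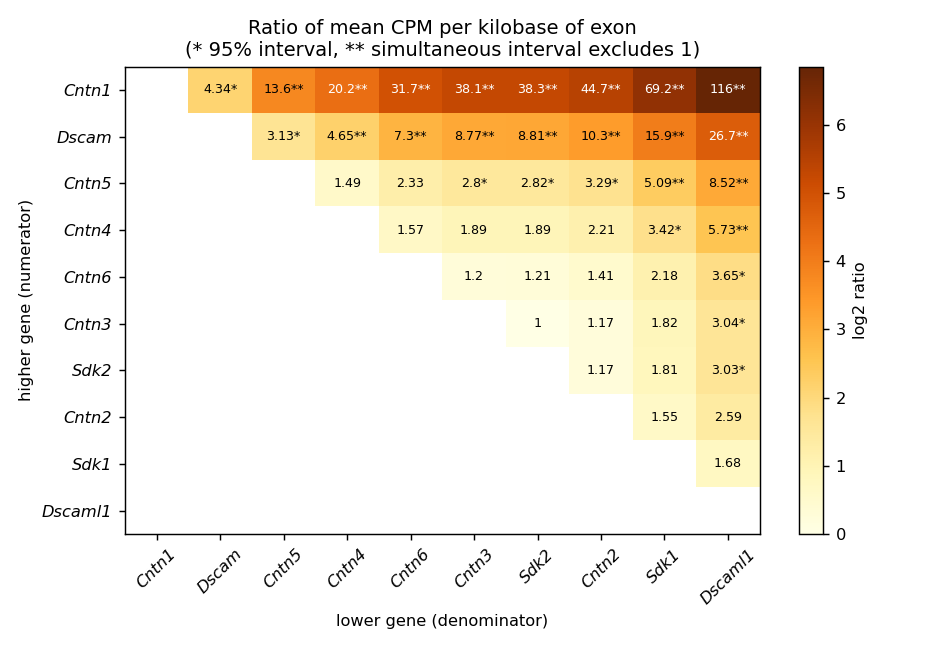
Ratio of the mean CPM per kilobase of exon for each of the 45 pairs, higher gene in rows and lower gene in columns, coloured by the log2 ratio. A single asterisk marks a 95% interval that excludes 1 and a double one an interval that does so for all 45 pairs at once. The rows of Cntn1 and Dscam are marked throughout, and the block of Cntn4, Cntn6, Cntn3, Sdk2 and Cntn2 holds no mark.

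Within the contactin family the make-up was dominated by Cntn1. It held 85.0% of the 12934 contactin counts in A (95% Clopper-Pearson interval 84.4 to 85.6) and 89.2% of the 34267 in B (88.9 to 89.5). Per exon length its share was 77.8% in A and 86.8% in B. Cntn5 had the next share in A, 13.2% per length, and the lowest in B, 1.21%. The shares of Cntn2, at 1.87% in A and 1.85% in B, and Cntn6, at 2.71% and 2.56%, were close to each other in the libraries. Cntn3 held 1.36% in A and 2.75% in B and Cntn4 3.05% and 4.85%.

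**Figure D3:**
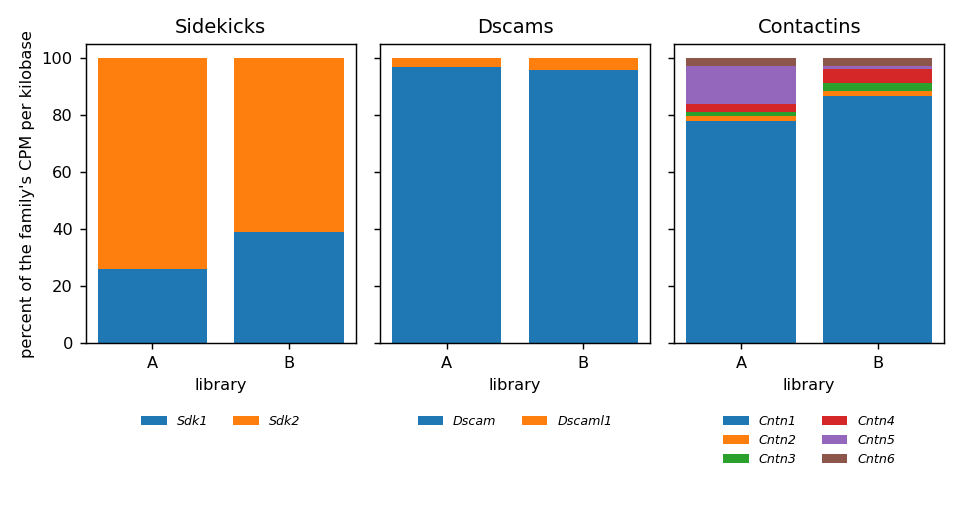
Share of each gene in its family's summed CPM per kilobase of exon (vertical axis, percent), in libraries A and B, for sidekicks, Dscams and contactins. Cntn1 took 77.8% in A and 86.8% in B of the contactin total, and Cntn5 13.2% and 1.21%.

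The libraries were compared gene by gene with an exact two-sided binomial test of the counts, with Benjamini-Hochberg adjustment over 14107 genes of at least 10 counts, and a gene was called at an adjusted value under 0.05 and at least 2-fold. This compares the libraries and no conditions. Of the 10 genes 5 were called, beside 42.6% of all genes tested, so the count lies near the background. Cntn5 was the 1 gene called higher in A, beside 10.3% of all genes. It was 7.60-fold higher in A, a log2 ratio of A over B of 2.88 (adjusted value 5.45e-202 by the exact test). Sdk1, Cntn3, Cntn4 and Sdk2 were called higher in B, beside 32.3% of all genes, with log2 ratios of -1.98, -1.51, -1.18 and -1.14. The log2 ratios of Cntn1, Dscam, Cntn2, Cntn6 and Dscaml1 lay between -0.98 and -0.43, within 2-fold on this scale, which adds a pseudocount of 0.5 CPM. The median over the 10 genes was -0.83, and over all genes tested -0.53.

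The calls depended on the scaling. TMM factors moved the median log2 ratio of all genes tested by 0.45 towards A and DESeq2 size factors by 0.48. Over all genes tested, 1458 were called higher in A and 4550 higher in B by gene totals, 2206 and 3020 with TMM factors, and 2278 and 2960 with DESeq2 size factors. Under both, 3 genes were called, Cntn5 at 3.32 and 3.35, Sdk1 at -1.54 and -1.51, and Cntn3 at -1.07 and -1.05, beside 37.0% and 37.1% of all genes. Sdk2 and Cntn4 were then not called, with -0.70 and -0.67 for Sdk2 and -0.74 and -0.71 for Cntn4. Cntn6, at -0.43 by gene totals, stood at 0.01 and 0.04, so its direction flipped without a call. The other 4 genes within 2-fold stayed lower in A.

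**Figure D4:**
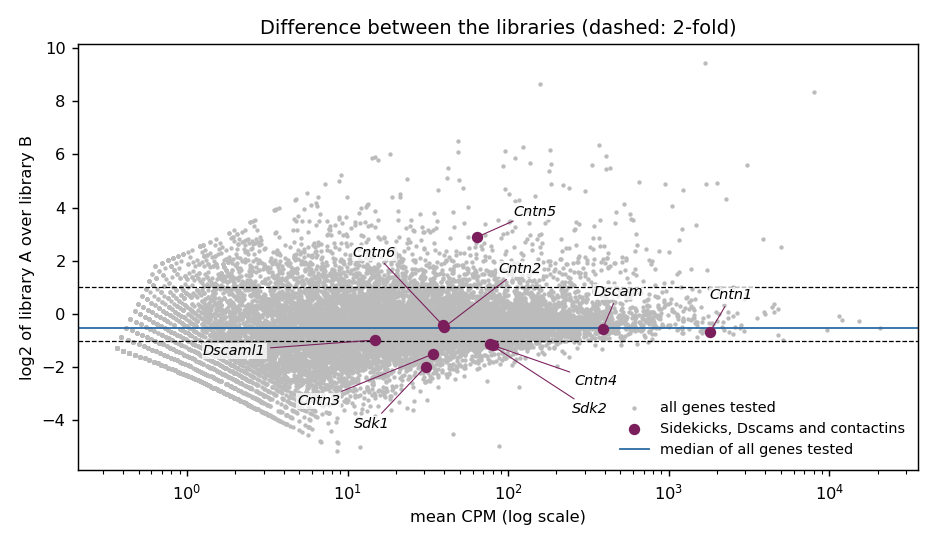
Log2 ratio of library A over library B (vertical axis) against mean CPM (horizontal log axis) for all genes tested (grey) and the 10 genes (named). Dashed lines mark 2-fold and the blue line the median of all genes tested, -0.53. Cntn5, at 2.88, stands above the upper line, and Sdk1, Cntn3, Cntn4 and Sdk2 lie below the lower one.

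Genes tied to Cntn5 and markers of other cells were set beside its difference. Satb1, which acts upstream of Cntn5 in direction-selective ganglion cells, stood at 323 CPM in A and 406 CPM in B, within 2-fold. Cntnap4, which encodes the Caspr protein known to pair with contactin 5, stood at 2.02 CPM in A and 20.4 CPM in B, the reverse of Cntn5, and was called higher in B under all 3 scalings. Of all genes tested, 42.6% were called either way by gene totals, 37.0% with TMM and 37.1% with DESeq2 factors. The 7 endothelial and mural markers summed to 407 CPM in A and 115 CPM in B. Of these markers, 3 were called higher in A and 3 higher in B under each of the 3 scalings. Those higher in A were genes of mural cells, the cells that wrap capillaries. Rgs5 stood at 342 CPM in A and 82.4 CPM in B and Pdgfrb at 51.9 and 10.3 CPM. Kcnj8 stood at 9.98 and 2.76 CPM, while the endothelial gene Cldn5 stood at 0 and 0.0728 CPM. Those higher in B were the endothelial genes Pecam1, at 0.632 CPM in A and 2.91 CPM in B, Cdh5, at 0.884 and 8.66 CPM, and Tek, at 1.64 and 8.22 CPM. Their part in the level of Cntn5 was not tested.

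Promoter windows from RefSeq (build GRCm38.p6) were available for 9 of the 10 genes, 13 windows in all, each running 250 bases before to 50 after a transcription start. They are shown for 4 genes because they span the range of CpG content among the 13 windows, from 0 to 54 CG pairs. They include the highest gene and the one that differed most between the libraries. Capitals mark CG pairs, the sites of DNA methylation. The windows are Sdk1 at chr5:141241284-141241583 on the plus strand, Cntn5 at chr9:10904726-10905025 on the minus strand, Cntn1 at chr15:92050915-92051214 on the plus strand and Cntn3 at chr6:102464618-102464917 on the minus strand.
Sdk1: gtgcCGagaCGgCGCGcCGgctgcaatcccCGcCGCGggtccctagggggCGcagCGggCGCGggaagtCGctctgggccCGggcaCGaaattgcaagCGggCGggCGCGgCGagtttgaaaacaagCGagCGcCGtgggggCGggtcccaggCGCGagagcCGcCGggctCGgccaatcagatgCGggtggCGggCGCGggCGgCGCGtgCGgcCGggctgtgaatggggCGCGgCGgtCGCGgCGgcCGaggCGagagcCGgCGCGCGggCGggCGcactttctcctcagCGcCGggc
Cntn5: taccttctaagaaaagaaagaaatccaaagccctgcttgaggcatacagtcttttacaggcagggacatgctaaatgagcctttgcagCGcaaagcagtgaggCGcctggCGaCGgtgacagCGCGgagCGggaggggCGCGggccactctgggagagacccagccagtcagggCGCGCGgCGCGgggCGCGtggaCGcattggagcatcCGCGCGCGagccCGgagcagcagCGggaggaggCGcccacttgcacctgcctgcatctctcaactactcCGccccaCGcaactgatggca
Cntn1: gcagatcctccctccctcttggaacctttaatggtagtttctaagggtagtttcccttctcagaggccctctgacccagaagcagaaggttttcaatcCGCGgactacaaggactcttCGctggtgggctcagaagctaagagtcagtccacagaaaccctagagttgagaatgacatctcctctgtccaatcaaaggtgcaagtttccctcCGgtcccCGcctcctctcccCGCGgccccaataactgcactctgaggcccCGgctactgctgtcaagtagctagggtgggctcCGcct
Cntn3: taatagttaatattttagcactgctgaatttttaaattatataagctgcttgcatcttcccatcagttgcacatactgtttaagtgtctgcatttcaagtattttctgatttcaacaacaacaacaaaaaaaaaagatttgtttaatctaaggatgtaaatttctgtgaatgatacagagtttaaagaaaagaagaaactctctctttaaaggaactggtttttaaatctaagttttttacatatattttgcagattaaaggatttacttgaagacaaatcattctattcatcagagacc

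The Sdk1 window held 54 CG pairs, more than 99.65% of the 32851 mouse windows of this length, against a median of 7. Sdk2 held 41, and Dscam and both windows of Cntn5 held 26 each. The 3 windows of Cntn1 held 9, 5 and 4, those of Cntn4 4 and 12, and those of Cntn2 and Cntn6 13 and 4. The Cntn3 window held 0. Cntn1, the highest gene, thus had fewer pairs than Sdk1, at place 9 per exon length. The GC box GGGCGG, searched on both strands, was present in the windows of Sdk1, Sdk2 and Cntn5 and in 35.7% of all windows. The TATA box TATAAA was present in the second window of Cntn1 and in 13.6% of all windows. The T-box motif AGGTGTGA was in none of the 13, where 1.28% of all windows held it. Which start these cells use was not measured.

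On the chromosomes, 3 of the genes lie together. In the GENCODE M21 annotation Cntn3, Chl1, Cntn6 and Cntn4 follow each other as coding neighbours on chromosome 6, leaving out genes with a predicted-gene symbol. Chl1, an L1-family adhesion gene, stood at 664 CPM in A and 849.6 CPM in B. Per exon length it averaged 61.6 ± 10.7 CPM per kb, beside 5.03 ± 3.47 for Cntn3 and 6.04 ± 1.28 for Cntn6 on either side of it. Cntn2 has another L1-family gene, Nfasc, as its neighbour on chromosome 1, at 499 and 730.5 CPM. Exons of Dscam, Dscaml1 and Cntn5 overlapped exons of genes on the other strand, over 290 bases at most, so a few reads of these may be unassigned or misassigned.

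Known partners of the contactins, scaffolds and signalling genes of sidekicks and Dscams, and related adhesion genes were then examined. Of 53 genes on these 9 lists, 45 were detected, 34 were above 10 CPM and 19 above 100 CPM in both libraries, beside 46.8%, 27.8% and 6.53% of all symbols. All 4 L1-family genes exceeded 100 CPM in both libraries. L1cam, an axonal adhesion molecule, stood at 3522 CPM in A and 2363 CPM in B, and Nrcam at 853 and 499.7 CPM. None of the 4 was called different between the libraries by gene totals, beside 42.6% of all genes tested. L1cam and Nrcam were called higher in A with TMM and with DESeq2 factors, beside 37.0% and 37.1% called either way. Per exon length L1cam averaged 401 ± 111, Chl1 61.6 ± 10.7, Nrcam 50.6 ± 18.7 and Nfasc 43.5 ± 11.6 CPM per kb, beside 191 ± 62.6 for Cntn1.

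Of the 7 Caspr genes on the list, 6 were detected, 5 of them above 10 CPM, and their median was 20.6 CPM (A) and 20.4 CPM (B). Cntnap2, which clusters potassium channels on axons, stood at 255 and 224 CPM. Cntnap1, the partner of contactin 1 at the junctions beside the nodes, stood at 31.5 and 54.8 CPM, or 7.34 ± 2.81 CPM per kb, where Cntn1 had 191 ± 62.6. Cntnap5a stood at 28.3 and 40.3 CPM, Cntnap5b at 19.8 and 17.0 CPM and Cntnap3 at 20.6 and 10.3 CPM. By gene totals Cntnap4 and Cntnap5c were the 2 called different, both higher in B, beside 42.6% of all genes tested. Under both other scalings these 2 were called again and Cntnap3 was called higher in A, beside 37.0% and 37.1%. Cntnap5c had 0 counts in A.

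All 6 genes of the amyloid precursor and receptor phosphatase list were detected. App, a partner of contactin 4, stood at 1078 CPM in A and 1215 CPM in B, Aplp2 at 266 and 388 CPM and Aplp1 at 190.5 and 365 CPM. Ptprg, the receptor phosphatase bound by contactins 3 to 6, stood at 177 and 275 CPM. Ptpra stood at 51.2 and 72.8 CPM, and Ptprz1, a ligand of contactin 1, at 21.6 and 35.5 CPM. None of the 6 was called different between the libraries under any of the 3 scalings, beside 42.6% of all genes tested by gene totals, 37.0% with TMM and 37.1% with DESeq2 factors. Of 6 matrix and soluble partners 4 were detected. The proteoglycan gene Ncan stood at 650.3 and 851 CPM, the growth factor gene Ptn at 79.7 and 131 CPM and the tenascin gene Tnr at 23.1 and 59.0 CPM, while Tnc stood at 10.5 and 7.93 CPM and Mdk at 1.01 and 0.509 CPM. By gene totals Tnr and Bcan were called higher in B, and under the other scalings none of the 6 was called, beside the same shares of all genes. Of 3 sodium channel beta subunits on the list 2 were detected, with Scn3b at 353 and 194 CPM, called higher in A under the other 2 scalings and not by gene totals. Scn2b stood at 15.0 and 10.3 CPM, and Scn4b had 0 counts in both, which allows up to 0.379 CPM in A and 0.218 CPM in B. The 4 Notch receptors, with which contactins 1 and 6 are known to interact, were all under 5 CPM, between 0.884 and 2.65 CPM in A and 4.07 and 4.58 CPM in B.

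The scaffolds that bind the tails of sidekicks and Dscams were present. All 5 PDZ-domain genes on that list were detected, with Magi1 at 152 CPM in A and 257 CPM in B, Dlg4 at 169 and 169 CPM, Magi3 at 117 and 141 CPM, Magi2 at 80.3 and 139.9 CPM and Pick1 at 6.57 and 14.4 CPM. Per exon length the 3 Magi genes averaged between 9.70 and 19.4 CPM per kb, where Sdk1 and Sdk2 averaged 2.77 and 5.00 and Dscam 44.1. Of 9 genes of Dscam signalling and netrin receptors 8 were detected. The kinase gene Pak1 stood at 650.4 and 379 CPM, the receptor genes Neo1 at 385 and 514 CPM, Unc5c at 452 and 180 CPM and Dcc at a mean of 226 ± 33.6 CPM, and the kinase gene Fyn at 107 and 125 CPM. Of the 9, Unc5c was called higher in A and Ntn1, Nck1 and the kinase gene Ptk2 higher in B by gene totals. Under both other scalings Unc5c, Pak1 and Nck2 were called higher in A and Ntn1 and Nck1 higher in B. Of all genes tested, 42.6% were called by gene totals, 37.0% with TMM and 37.1% with DESeq2 factors. Ptk2 stood at 26.3 and 54.4 CPM. Of the adaptor genes Nck1 and Nck2, the first had 5.56 and 16.8 CPM and the second 22.1 and 12.5 CPM. The netrin gene Ntn1 had 0 counts in A and 2.76 CPM in B.

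Of 9 related adhesion genes outside the 10, 7 were detected and none exceeded 100 CPM in both libraries. Igdcc4 stood at 190.4 CPM in A and 21.6 CPM in B, 8.81-fold higher in A, a difference close in size and equal in direction to that of Cntn5. Igsf9b, a gene of inhibitory synapses, stood at 17.2 and 34.9 CPM, Kirrel3 at 12.5 and 25.4 CPM, Kirrel at 4.17 and 18.2 CPM and Hmcn1 at 8.46 and 3.57 CPM. Igdcc4 and Hmcn1 were called higher in A and Igsf9 and Kirrel higher in B under all 3 scalings. The share of all genes tested that was called either way was 42.6% by gene totals, 37.0% with TMM and 37.1% with DESeq2 factors.

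**Figure D5:**
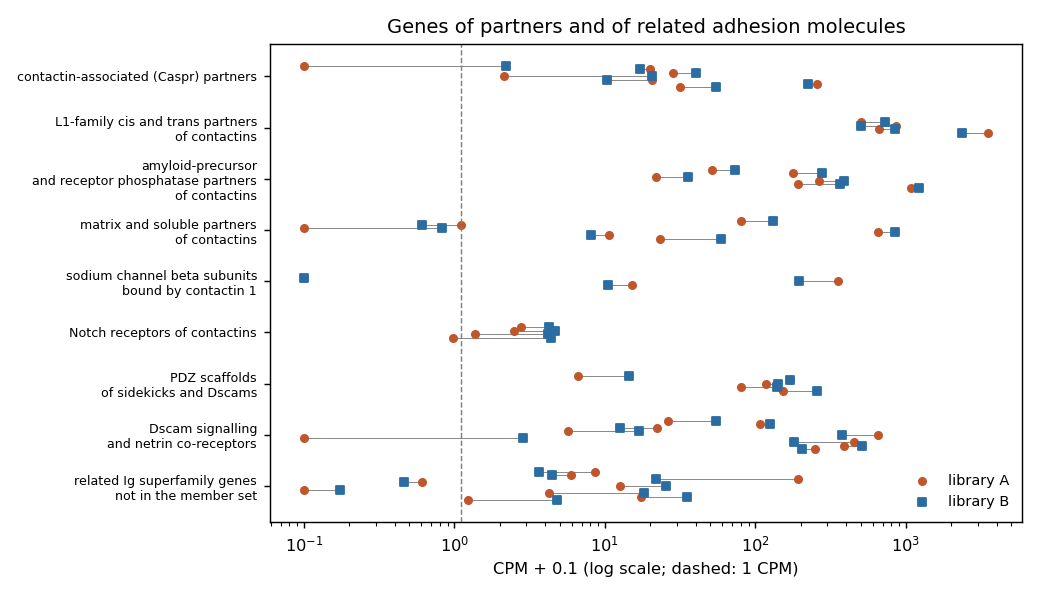
CPM plus 0.1 (horizontal log axis) of the 53 genes on the 9 lists, 1 line per gene, in library A (circles) and library B (squares), with the dashed line at 1 CPM. The L1-family genes all lie above 100 CPM in both libraries, and the Notch receptors lie under 5 CPM.

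The identity of the sort was checked with 12 ganglion cell genes, and 12 were detected, 11 of them at 100 CPM or more in both. Between the libraries Pou4f2 and Thy1 were called higher in B by gene totals, beside 42.6% of all genes tested called either way. Rbpms and Jam2 were called higher in A with TMM and with DESeq2 factors, beside 37.0% and 37.1%. Nefl, Nefm, Jam2, Slc17a6 and Rbpms each averaged at least 1287 CPM. Markers of other cells, some of which also express contactins, were examined next. Of the oligodendrocyte lineage, which carries Cntn1, 3 of 7 genes were detected, which summed to 18.4 CPM (A) and 28.9 CPM (B), and its defining factors Olig1, Olig2 and Sox10 had 0 counts in both libraries. The 5 astrocyte genes summed to 46.1 and 30.2 CPM. Of these 1 was detected, Aldoc, which made up most of the sum at 45.2 CPM in A and 28.1 CPM in B. Gfap stood at 0 and 1.09 CPM. Of 10 amacrine genes 5 were detected, with a sum of 417 and 476 CPM, most of it from Pax6 (291 and 368 CPM), which ganglion cells also express, and Gad2 at 58.4 and 56.8 CPM, while Chat, Slc18a3 and Th stayed at or under 0.126 CPM. Bipolar genes summed to 251 and 124 CPM with Grm6 at 96.4 and 0.582 CPM, photoreceptor genes to 40.9 and 31.6 CPM, horizontal cell genes to 22.5 and 42.5 CPM, Müller glia genes to 149 and 216 CPM and microglia genes to 278 and 339 CPM. For genes at the level of Dscaml1, Sdk1, Cntn2 or Cntn3, the share of reads that came from other cells was not tested.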

How the data were processed

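RNA of J-RGCs at postnatal day 6 was measured in 2 single-end libraries, A and B. For each library the authors deposited raw read counts by gene symbol. Per the submitters' processing notes, HTSeq 0.6.1, TopHat2 2.0.10 and Trimmomatic 0.32 were used with mm9. Settings, annotation and strand use were not given in the sources used here. The 5 closing summary lines were left out of the gene totals. They held 73.2% of the listed reads in A and 69.1% in B, chiefly reads outside annotated features. No unaligned reads were listed.

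CPM used each library's gene total. Exon lengths came from GENCODE M21 on another build, for 22716 symbols. With 1 group there was no contrast to fit. edgeR 4.0.16 (R 4.3.3) gave the dispersion from an intercept-only fit over 11272 genes, with a biological coefficient of variation of 0.509. TMM and DESeq2 1.42.0 size factors were alternatives. Python 3.11.15 with scipy 1.17.1 was used for the rest. On simulated data, the exact test was tried with Poisson counts only and the ratio intervals with a set dispersion. The dispersion estimate was tried on counts of known dispersion. These trials do not show how the intervals hold with a dispersion estimated from 2 libraries. Amplified reads carry no molecular identifiers, so intervals on counts cover counting error only. Genes and lists were chosen with earlier results of these data known. Of each list of partners or related genes, up to 5 genes of highest mean CPM and those with no count were named, plus the 3 genes ranked on either side of the highest gene. Other list genes named (Cntnap4, Cntnap5c, Nck1, Nck2, Ntn1, Ptk2, Bcan, Igsf9, Satb1 and the cell markers) were chosen after their values were seen.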

Additional observations from a re-analysis of the deposited data

How the results depend on the processing

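The number of the 10 genes that differed between the libraries depended most on the processing. It was 5 by gene totals and 2-fold, beside 42.6% of all genes tested. With TMM factors it was 3 and with DESeq2 size factors 3, all among the 5, beside 37.0% and 37.1%. With no fold minimum it was 10, beside 77.8%, at 1.5-fold 7, beside 60.2%, and with genes of any count 5, beside 35.7%. That test needs both libraries, so none could be left out. All 10 genes were detected at 0.5 and at 5 CPM, and 9 at 10 CPM. The number of separated pairs, 27 of 45, lay between 19 and 27 over all settings, the lowest with library B alone. Coding length, each gene's own dispersion and the other scalings of the partner lists were settings chosen after seeing the data. Cntn5 over Cntn4 per exon length reversed, with a log2 ratio of 2.11 in A alone and -2.01 in B alone, and also with both libraries, at -0.0055 per longest coding transcript, -0.43 per coding length and -0.33 with no length correction, against 0.57 per exon length. Other neighbours that were not separated changed order as well. Cntn3 over Sdk2 (0.0066) stood at -0.10 per longest coding transcript, -0.11 per coding length, -1.19 with no length correction, -0.27 in A alone and 0.12 in B alone. Sdk2 over Cntn2 stood at -0.11 per coding length, -0.18 in A alone and 0.45 in B alone, and Cntn6 over Cntn3 at 1.00 in A alone and -0.11 in B alone. Cntn6 between the libraries moved to 0.012 with TMM and 0.040 with DESeq2 factors, against -0.43. Per coding length Cntn2 became separated from Sdk1 (log2 ratio 1.45). The median level of 45.3 CPM kept within the SD of 6.41 under each scaling. Genes of the 9 lists of partners and related adhesion genes at 10 CPM or more in both libraries numbered 34 of 53, against 45 at 1 CPM. With 2 libraries, differences under about the SD of each level cannot be resolved, and larger ones need not be. Cntn6 at 6.04 ± 1.28 and Sdk1 at 2.77 ± 2.37 CPM per kb, for example, were not separated (95% interval of the ratio 0.884 to 5.38).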
